A study of Mus musculus with 12 samples.

Results

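The S100 and annexin proteins are the calcium-regulated proteins described here, and 10 of their genes, chosen by symbol, were taken from the 18278 genes in the count tables. They are S100a4, S100a6, S100a10, S100a11 and S100a13, and Anxa1, Anxa2, Anxa3, Anxa5 and Anxa6. All 10 passed the filter on low counts. S100 proteins are small EF-hand proteins, most of which work as dimers and expose a hydrophobic face once calcium is bound. Annexins bind negatively charged phospholipids in a calcium-dependent way and organise membrane contacts, vesicle traffic and membrane repair. Some pairs from the 2 families form complexes, the best known being a heterotetramer of S100A10 with annexin A2, which serves as a plasminogen receptor at the cell surface, and the pairing of S100A11 with annexin A1. Several of these proteins, S100A4 first among them, are known in breast cancer for links to cell motility and metastasis.

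mRNA was sequenced from tumourspheres, that is from cells grown in suspension on ultra-low attachment plates for 6 days after seeding 10000 cells per mL in serum-free medium with B27, EGF and basic FGF (20 ng per mL each). There were 12 libraries, 3 for each of the lines LM1 and LM9 and 3 for each of their knockouts, LM9 Nfib KO and LM1 Nfib KO. LM1 and LM9 are mouse mammary cancer cell lines grown from lung cells of NOD/SCID mice that carried HR1.PB mammary tumours, and all 4 groups therefore share a mutant PIK3CA transgene under the CAG promoter, a GFP sort and mutagenesis with the piggyBac transposon. The Nfib KO cells were made with CRISPR-Cas9 guides against Nfib, the gene of the transcription factor NFIB, and are pools of a few single-cell clones, so a difference from the parental line can also reflect which clones were pooled, and these cannot be told apart. The design asks what NFIB does in the 2 lines, and for each of the 10 genes this becomes the difference between the libraries labelled Nfib KO and their parental line.

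Library totals ran from 29249075 to 37162594 counts. Values are counts-per-million (CPM) scaled with TMM factors. Every test named limma-voom is two-sided, with Benjamini-Hochberg adjustment over the tested genes and a call at an adjusted p under 0.05. The tested genes numbered 18176 with all libraries and 18246 without LM9 replicate 1. The labels do not say whether replicates were separate cultures, so the p-values measure the spread between these libraries, which may be technical. The level of Nfib itself went from 218 ± 22.6 CPM in LM1 to 235 ± 5.67 in its KO-labelled libraries, and from 154 ± 48.8 CPM in LM9 to 240.0 ± 11.2 (mean ± SD, n = 3), with a log2 fold change of 0.11 in LM1 and 0.68 in LM9 (limma-voom adjusted p = 0.533 and 0.00260), so the targeted gene was not lower in the libraries labelled KO. A frameshift need not change the amount of mRNA, so this level does not check the labels. The authors screened the single-cell clones by immunoblotting, which is not part of the data used here. LM9 replicate 1 stood apart from the other LM9 libraries: its log2 levels correlated with those of the LM1 libraries at 0.991 to 0.992 and with LM9 replicates 2 and 3 at 0.963 to 0.965. The labels put this library in LM9, and whether it holds LM9 or LM1 cells was not tested, so every LM9 mean and every comparison of LM1 with LM9 depends on it. The fold changes of the 10 genes in LM9 are therefore given with and without it, while values of other genes include it. The fit shares 1 spread for each gene over all 4 groups, so standard errors and p-values in LM1 also depend on this library. For Anxa2 in LM1 the limma-voom adjusted p was 1.72e-05 with LM9 replicate 1 and 7.39e-19 without it. For Nfib the LM9 libraries stood at 210.3, 119.6 and 133 CPM in replicates 1 to 3.

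The cell type labels could be checked only in part. Of 7 measured luminal epithelial markers all 7 were lower in the libraries labelled KO, where their summed level was 0.936 to 1.14 CPM against 791 to 1615 CPM in the parental libraries, and Cldn3 had 0 counts there, where a floor of 3 counts per library allows at most 0.0793 CPM. Averaged over both lines, 6 of 7 fibroblast markers were higher and Dcn was lower, with a sum of 1309 to 1402 CPM against 174 to 311. Col1a1 made up most of the higher sum, at 958 CPM in LM1 Nfib KO and 899 in LM9 Nfib KO. Col1a2 and Lum had at most 35 and 18 counts in any library. Dcn was not called in LM9, where it stood at 84.4, 15.7 and 15.1 CPM in replicates 1 to 3. Of 6 endothelial markers listed 3 had a row. Kdr and Cdh5 were higher and Pecam1, with at most 33 counts, was not called, with a sum of 350.5 to 359 CPM against at most 1.33. Of 3 basal epithelial markers Krt14 and Krt17, the latter with at most 20 counts, were higher and Trp63 was lower. Trp63 was not called in LM9. Its levels there were 17.9, 0.0403 and 0.276 CPM in replicates 1 to 3, against 0.270 ± 0.0991 CPM in LM9 Nfib KO. Of 2 leukocyte markers Csf1r was higher and Cd68 was lower. These lists moved with the KO label together with the S100 and annexin genes, and their part in the results below was not tested. Log2 levels over all genes correlated at 0.685 to 0.701 between KO-labelled and parental libraries, but at 0.993 to 0.994 between the KO-labelled libraries of the 2 lines, and at 0.961 to 0.992 between LM1 and LM9. The identity of the cells in the KO-labelled libraries was not tested, so in every difference below an effect of the Nfib edit and a difference in the kind of cell cannot be told apart. In bulk RNA, fewer cells of a type and less RNA per cell cannot be told apart.

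Before the levels, the promoters are shown for 4 genes on which the results turn: S100a4, S100a11 and Anxa2, which rose in the libraries labelled KO, and Anxa1, which was slightly lower in them. RefSeq (GRCm38.p6) promoters of 300 bases, from 250 before to 50 after the start site, were matched for 7 of the 10 genes. S100a10, Anxa3 and Anxa6 had no entry. The sequences are 5′ to 3′ on the gene's strand, at chr3:90603520-90603819 (+) for S100a4, chr3:93520246-93520545 (+) for S100a11, chr9:69453433-69453732 (+) for Anxa2 and chr19:20390622-20390921 (-) for Anxa1. Capitals mark matches to the NFI core (TTGGC on either strand), the AP-1 site (TGANTCA) and the TATA box (TATAAA on either strand).
S100a4: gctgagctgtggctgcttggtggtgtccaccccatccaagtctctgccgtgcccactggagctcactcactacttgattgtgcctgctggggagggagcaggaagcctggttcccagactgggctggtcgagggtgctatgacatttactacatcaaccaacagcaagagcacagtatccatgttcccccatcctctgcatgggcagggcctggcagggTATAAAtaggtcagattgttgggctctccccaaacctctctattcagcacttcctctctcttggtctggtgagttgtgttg
S100a11: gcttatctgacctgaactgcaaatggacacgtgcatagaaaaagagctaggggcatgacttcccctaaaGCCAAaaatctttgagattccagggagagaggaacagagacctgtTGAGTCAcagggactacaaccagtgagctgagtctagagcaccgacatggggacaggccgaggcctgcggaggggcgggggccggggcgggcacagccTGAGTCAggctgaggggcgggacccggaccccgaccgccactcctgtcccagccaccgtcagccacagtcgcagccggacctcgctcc
Anxa2: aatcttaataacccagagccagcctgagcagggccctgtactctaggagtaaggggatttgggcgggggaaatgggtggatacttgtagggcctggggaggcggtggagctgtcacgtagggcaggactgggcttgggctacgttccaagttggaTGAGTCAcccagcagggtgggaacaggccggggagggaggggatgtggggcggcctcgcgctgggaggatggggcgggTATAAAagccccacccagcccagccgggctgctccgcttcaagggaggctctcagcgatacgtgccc
Anxa1: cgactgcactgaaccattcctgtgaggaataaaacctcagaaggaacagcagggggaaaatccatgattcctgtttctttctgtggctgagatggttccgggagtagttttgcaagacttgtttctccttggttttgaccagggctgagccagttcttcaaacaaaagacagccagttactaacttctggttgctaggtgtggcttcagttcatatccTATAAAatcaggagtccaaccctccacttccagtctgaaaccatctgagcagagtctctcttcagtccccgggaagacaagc
The S100a11 promoter held an NFI core starting 181 bases before the start site and AP-1 sites at 136 and 38 bases before it. The Anxa2 promoter held an AP-1 site at 95 bases and a TATA box at 17 bases before the start. The only capitals in the promoters of S100a4 and Anxa1 are a TATA box, at 31 and 32 bases before the start. The full NFI site, made of 2 cores that face each other across 5 bases, was in none of the 7 promoters. Among 32851 promoters of the same length, 46.7% held an NFI core, 0.0365% a full NFI site, 7.81% an AP-1 site and 13.6% a TATA box, the core and the full site overlapping by construction. Of the promoters not printed, S100a13 held an NFI core, and S100a6 and Anxa5 held none of the motifs searched. CpG dinucleotides numbered 2 for S100a4, 3 for Anxa1, 6 for S100a6, 13 for Anxa2, 14 for S100a13, 15 for S100a11 and 16 for Anxa5, with a median of 7 over all promoters. A match of letters is a description of the window only.

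In LM1, 7 of the 10 genes were higher in the libraries labelled KO, 2 (Anxa1 and Anxa6) were lower and S100a13 did not pass the test (limma-voom). In LM9 the counts were again 7, 2 and 1, for these same genes. The tests called 81.2% of all genes in LM1 and 82.3% in LM9, so 9 of 10 is near what any gene of these tables gave. By direction, 43.1% of all genes were called higher and 38.1% lower in LM1, and 44.3% and 38.0% in LM9. The median log2 fold change of the 10 genes was 0.93 in LM1 and 0.72 in LM9, beside 0.08 and 0.13 over all genes, while the median absolute log2 fold change was 1.31 and 1.00 beside 1.16 and 1.24. Without LM9 replicate 1 all 10 passed in both lines, 8 higher and 2 lower in LM1, beside 88.6% of all genes (46.4% higher, 42.1% lower), and 7 higher and 3 lower in LM9, beside 88.9% (47.7% higher, 41.2% lower). The KO-labelled and parental libraries did not overlap for 10 of 10 genes in LM1, beside 89.1% of all genes, and for 9 of 10 in LM9, beside 80.5%. The size of change among the S100 and annexin genes was thus like that of other genes, and their changes were mostly upward.

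**Figure D1:**
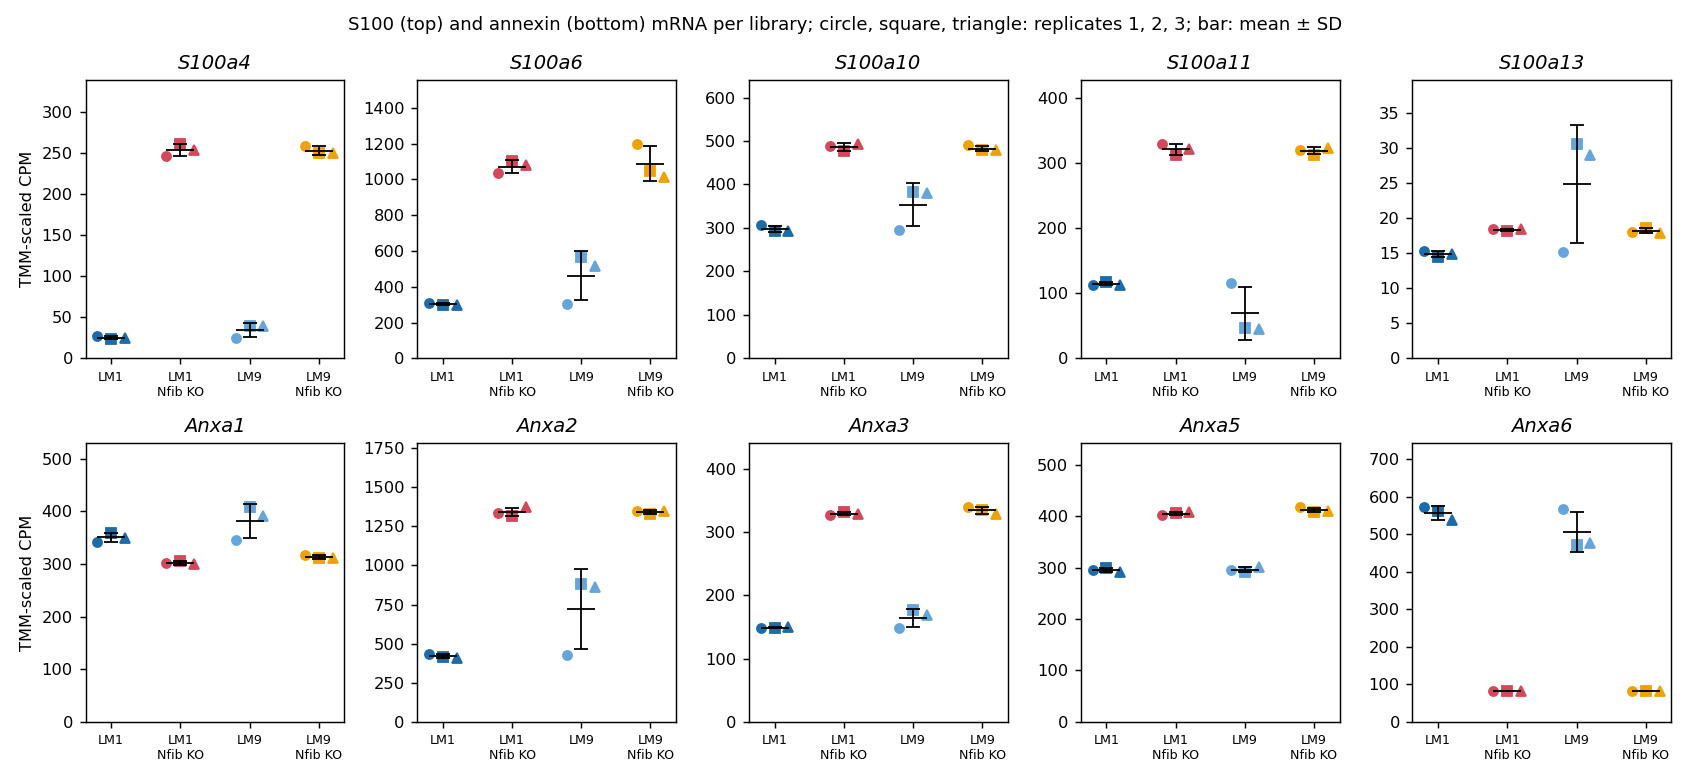
Level of each of the 10 genes (TMM-scaled CPM, axis from 0) in every library of the 4 groups, with circles, squares and triangles for replicates 1, 2 and 3 and bars for the mean ± SD of 3 libraries. The KO-labelled groups of both lines sit at nearly the same level for every gene, and the circle of LM9 replicate 1 lies at the level of LM1.

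S100a4, the S100 protein that binds non-muscle myosin IIA and is best known for a role in metastasis, had the largest fold change of the 10 in both lines with all libraries, though without LM9 replicate 1 S100a11 had a larger one in LM9 (gene at chr3:90603771-90606045, mm10). Its level in LM1 was 27.3, 23.3 and 24.5 CPM in replicates 1 to 3, and in LM1 Nfib KO it was 246, 261 and 253 CPM. In LM9 it was 24.3, 39.7 and 39.2 CPM, and in LM9 Nfib KO it was 259, 249.6 and 249.6 CPM. All 6 libraries labelled KO lay far above all 6 parental libraries, and the parental line with the higher level, LM9, owed this to replicates 2 and 3. The log2 fold change was 3.34 ± 0.15 (SE) in LM1, about 10.1-fold (limma-voom adjusted p = 1.74e-09), and 2.92 ± 0.14 in LM9, about 7.58-fold (adjusted p = 4.37e-09). Without LM9 replicate 1 it was 2.68 ± 0.05 in LM9 (limma-voom adjusted p = 1.75e-17). The exons of S100a4 overlap those of a predicted gene, Gm42674, on the same strand over 302 bp, and the counts of Gm42674 were 55.9% to 62.4% of those of S100a4 in every library, so reads of the 2 genes may be shared.

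S100a6, which encodes calcyclin and is known from proliferating cells, rose in both lines (chr3:90612882-90624181). It stood at 309, 299 and 299 CPM in LM1 and at 1033, 1100.1 and 1081 CPM in LM1 Nfib KO. In LM9 it stood at 306, 566 and 517 CPM, against 1197, 1049 and 1014 CPM in LM9 Nfib KO. The groups did not overlap in either line, and LM9 replicate 1 again took the LM1 level. S100a6 rose by a log2 fold change of 1.83 ± 0.18 (SE) in LM1 and 1.28 ± 0.18 in LM9 (limma-voom adjusted p = 1.88e-06 and 3.96e-05), and by 1.01 ± 0.06 in LM9 without replicate 1.

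S100a11, which forms homodimers and pairs with annexin A1, rose in both lines from unequal starting levels (chr3:93520488-93526287). In LM1 it was 114, 118 and 113 CPM and in LM1 Nfib KO 329.8, 313 and 322 CPM. In LM9 it was 116 CPM in replicate 1 and 47.4 and 44.8 CPM in replicates 2 and 3, and in LM9 Nfib KO it was 321, 314 and 323 CPM. LM9 replicates 2 and 3 were the lowest of the 12 libraries, the opposite of what these 2 libraries showed for S100a4 and S100a6. The log2 fold change was 1.48 ± 0.25 (SE) in LM1 and 2.33 ± 0.26 in LM9 (limma-voom adjusted p = 1.81e-04 and 5.65e-06), and 2.80 ± 0.04 in LM9 without replicate 1. A processed pseudogene of S100a11 on another chromosome has no row in the tables, and how reads that fit both copies were counted was not given in the sources used here.

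S100a10 (p11), the calcium-insensitive S100 protein that binds annexin A2, rose least among the 4 S100 genes that passed the test (chr3:93555080-93564643). Its levels were 306, 294 and 292 CPM in LM1 and 488, 476 and 493 CPM in LM1 Nfib KO. They were 296, 383 and 379.8 CPM in LM9 and 490.1, 479 and 479 CPM in LM9 Nfib KO. No KO-labelled library overlapped a parental one. S100a10 was higher by a log2 fold change of 0.71 ± 0.09 (SE) in LM1 and 0.46 ± 0.09 in LM9 (limma-voom adjusted p = 1.24e-05 and 4.02e-04), and by 0.34 ± 0.03 in LM9 without replicate 1.

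S100a13, known for a role in the release of FGF1 by a route that bypasses the secretory pathway, had the lowest level per length of the 10 genes in every group (chr3:90514435-90524581). It was 15.3, 14.5 and 14.9 CPM in LM1 and 18.4, 18.2 and 18.5 CPM in LM1 Nfib KO. It was 15.2, 30.6 and 29.0 CPM in LM9 and 18.1, 18.6 and 17.9 CPM in LM9 Nfib KO. In LM9 the KO-labelled libraries thus lay between replicate 1 and the other 2 libraries, and S100a13 was the only one of the 10 genes whose groups overlapped there. The log2 fold change was 0.30 ± 0.21 (SE) in LM1 and -0.37 ± 0.20 in LM9, neither past the threshold (limma-voom adjusted p = 0.209 and 0.109). Without LM9 replicate 1 both passed it, in opposite directions, with 0.31 in LM1 (limma-voom adjusted p = 3.82e-05) and -0.71 ± 0.05 in LM9 (adjusted p = 9.52e-10).

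Anxa2, the annexin that carries the S100A10 dimer, rose in both lines as well (chr9:69453620-69491795). Its levels were 434, 414 and 408 CPM in LM1 and 1336, 1318 and 1371 CPM in LM1 Nfib KO. In LM9 they were 426, 881 and 861 CPM, against 1349, 1326 and 1346 CPM in LM9 Nfib KO. LM9 replicates 2 and 3 stood between the LM1 level and that of the KO-labelled libraries. The rise was 1.68 ± 0.21 (log2 fold change ± SE) in LM1 and 0.97 ± 0.21 in LM9 (limma-voom adjusted p = 1.72e-05 and 0.00132), and it was 0.63 ± 0.03 in LM9 without replicate 1. An antisense gene, Gm16144, shares 98 bp of exon with Anxa2, and Gm42603 shares 112 bp with Anxa3, both without a row in the tables.

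Anxa3 and Anxa5, which encode an annexin known as an inhibitor of phospholipase A2 and the phosphatidylserine-binding annexin used to stain dying cells, rose by nearly the same amount in both lines. Anxa3 (chr5:96793339-96845966) was 149, 149 and 149.8 CPM in LM1 and 328, 333 and 329 CPM in LM1 Nfib KO. It was 149, 177 and 169 CPM in LM9 and 339.6, 336 and 329 CPM in LM9 Nfib KO. The log2 fold change of Anxa3 was 1.15 ± 0.06 (SE) in LM1 and 1.03 ± 0.06 in LM9 (limma-voom adjusted p = 9.94e-09 and 2.57e-08), and 0.96 ± 0.03 in LM9 without replicate 1. With all libraries these are rises of 2.21-fold and 2.04-fold that left the groups far apart. Anxa5 (chr3:36448923-36475894) was 295, 299 and 293 CPM in LM1 and 402, 407 and 408 CPM in LM1 Nfib KO. It was 296, 292 and 302 CPM in LM9 and 418, 409 and 411 CPM in LM9 Nfib KO. Anxa5 was the one gene for which LM9 replicates 2 and 3 averaged the level of replicate 1. Its log2 fold change was 0.46 ± 0.04 (SE) in LM1 and 0.48 ± 0.04 in LM9 (limma-voom adjusted p = 1.42e-06 and 9.62e-07), and again 0.48 in LM9 without replicate 1.

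Anxa6, the large annexin with a duplicated core that links membranes to the actin skeleton and to the recruitment of the Ras GTPase-activating protein p120, was the one member that fell strongly (chr11:54979108-55033445). It was 571, 561 and 537 CPM in LM1 and 81.5, 81.3 and 82.6 CPM in LM1 Nfib KO. It was 566, 470.4 and 477 CPM in LM9 and 82.2, 81.4 and 80.9 CPM in LM9 Nfib KO. The 6 KO-labelled libraries lay between 80.9 and 82.6 CPM, far below the parental ones. Anxa6 fell by 2.76 on the log2 scale in LM1 and by 2.62 in LM9 (SE 0.07 in both, limma-voom adjusted p = 3.00e-11 and 4.06e-11), and by 2.53 in LM9 without replicate 1. In the contrast averaged over both lines it ranked 241 of 18176 genes by p-value, the highest rank of the 10.

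Anxa1, an anti-inflammatory annexin that inhibits cytosolic phospholipase A2, had the smallest fold change of the genes that passed the test with all libraries (chr19:20373428-20390944). It was 343, 359.7 and 350.0 CPM in LM1 and 301, 306 and 299 CPM in LM1 Nfib KO. It was 346, 408 and 391 CPM in LM9 and 318, 311 and 312 CPM in LM9 Nfib KO. The groups did not overlap, but the gap in both lines was narrow. Anxa1 fell by 0.22 on the log2 scale in LM1 and by 0.28 in LM9 (SE 0.06 in both, limma-voom adjusted p = 0.00696 and 0.00134). Without LM9 replicate 1 its LM9 value was -0.34 ± 0.03, as large in size as that of S100a10. With library totals in place of TMM scaling the differences of Anxa1 were 0.0065 and 0.075 and neither was called. Over all genes, library totals moved the median of the averaged log2 fold changes from 0.11 to 0.40. Relative to the median of all genes, Anxa1 was at -0.30 in LM1 and -0.41 in LM9 with TMM scaling and with library totals alike. Of the 9 called genes only Anxa1 changed its direction or its call with library totals or median-ratio factors, while S100a13, not called with TMM, was called higher in LM1 with library totals (0.52, limma-voom adjusted p = 0.0153).

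**Figure D2:**
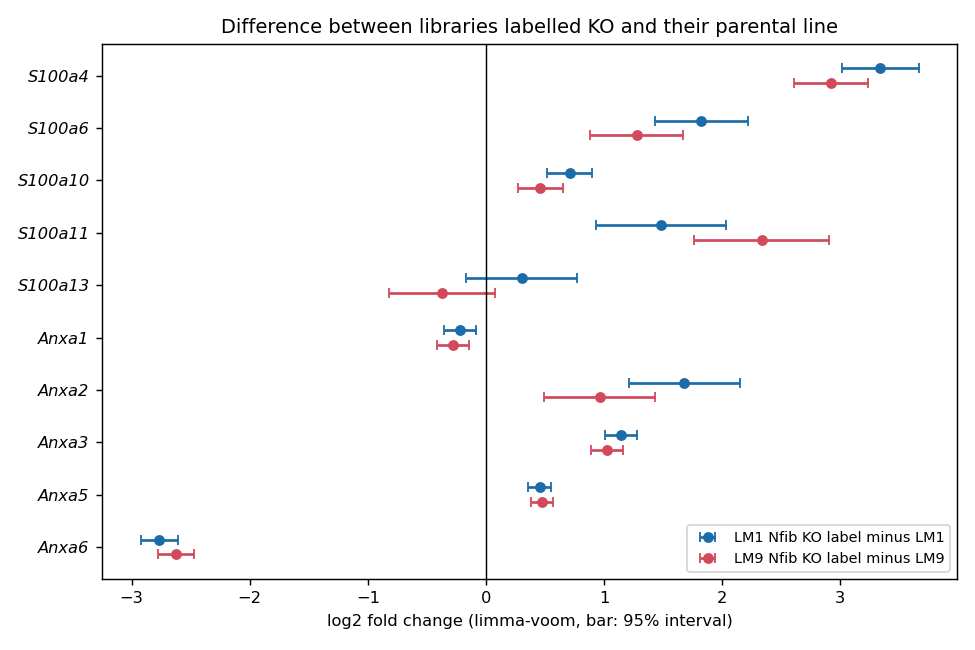
Log2 fold change of each gene between the libraries labelled Nfib KO and their parental line, in LM1 (blue) and LM9 (red), with bars for the 95% interval of limma-voom. The 7 genes that rose lie right of 0 in both lines, Anxa1 and Anxa6 lie left of it, and only the intervals of S100a13 cross 0.

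Together the 5 S100 genes summed to 754 ± 14.5 CPM in LM1 and 2150.2 ± 30.4 CPM in LM1 Nfib KO, and to 945 ± 165 CPM in LM9 and 2159 ± 110 CPM in its KO-labelled libraries (mean ± SD, n = 3). The summed level was thus 2.85-fold higher in LM1 and 2.29-fold higher in LM9, where the 3 parental sums were 757, 1067 and 1009.9 CPM. The 5 annexin genes summed to 1769.9 ± 29.2 and 2461 ± 25.2 CPM in LM1 and its KO-labelled libraries, and to 2069.7 ± 249 and 2483 ± 21.8 CPM in LM9 and its KO-labelled libraries. The LM9 sums were 1782, 2227 and 2199.6 CPM in replicates 1 to 3. The sums of the annexin genes were 1.39-fold and 1.20-fold higher, since the fall of Anxa6 offset part of the rise of Anxa2, Anxa3 and Anxa5.

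Levels of different genes were compared per length (RPKM, the CPM per kilobase of the union of exons in GENCODE M21). In LM1 the order began with S100a10 at 245 ± 6.19 RPKM, followed by S100a11 at 225 ± 5.30 and S100a6 at 221 ± 4.15, the last pair overlapping (mean ± SD, n = 3). Anxa6 at 189.8, Anxa5 at 166, Anxa1 at 120.5 and Anxa2 at 112 RPKM came next without overlap. S100a4 at 42.9 and Anxa3 at 40.9 RPKM overlapped, and S100a13 was last at 20.8 RPKM. In LM1 Nfib KO the order was S100a6 (784 ± 25.4 RPKM), S100a11 (629 ± 16.2), S100a4 (433 ± 12.6), S100a10 (401 ± 7.17) and Anxa2 (360 ± 7.24), with no overlap between neighbours. Anxa5, Anxa1, Anxa3, Anxa6 and S100a13 followed at 228, 104, 90.5, 27.9 and 25.7 RPKM. S100a4 thus moved from the eighth place to the third and Anxa6 from the fourth to the ninth. LM9 Nfib KO had the same order as LM1 Nfib KO, and in LM9 most neighbours overlapped because replicate 1 differed from the other libraries. RPKM depends on the exon union, which differs from the length of the transcript in use.

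Ratios of 2 genes within a library do not depend on the scaling of libraries, and they were taken for 3 pairs of genes whose proteins can pair and for 1 pair of neighbours on chromosome 3. The length-scaled ratio of S100a10 to Anxa2 was 2.17, 2.18 and 2.21 in LM1 and 1.13, 1.11 and 1.11 in LM1 Nfib KO. It was 2.14, 1.34 and 1.36 in LM9 and 1.12, 1.11 and 1.09 in LM9 Nfib KO. By these lengths the mRNA levels of S100a10 and Anxa2 came close to equal in all 6 KO-labelled libraries, with S100a10 higher in LM1. The value of the ratio depends on the exon unions used as lengths, while its change between groups does not. The ratio of S100a11 to Anxa1 rose from 1.87 ± 0.0228 in LM1 to 6.07 ± 0.204 in LM1 Nfib KO (SD, n = 3 each, exact two-sided permutation p = 0.1). In LM9 it was 1.92, 0.663 and 0.653, against 5.80 ± 0.0912 in LM9 Nfib KO. The ratio of S100a4 to S100a6, the neighbours, was 0.194 ± 0.0126 in LM1 and 0.553 ± 0.00473 in LM1 Nfib KO, and 0.176 ± 0.011 in LM9 and 0.546 ± 0.0365 in LM9 Nfib KO. The ratio of S100a11 to Anxa2 was 2.01 ± 0.0869 in LM1 and 1.75 ± 0.0465 in LM1 Nfib KO, without overlap (exact two-sided permutation p = 0.1). In LM9 it was 1.99, 0.393 and 0.380 against 1.74 ± 0.0142 in LM9 Nfib KO, and the groups overlapped (exact two-sided permutation p = 0.4). For none of the first 3 ratios did the KO-labelled and parental libraries overlap in either line, and the exact permutation test gave p = 0.1 for each, its lower limit for groups of 3 libraries.

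**Figure D3:**
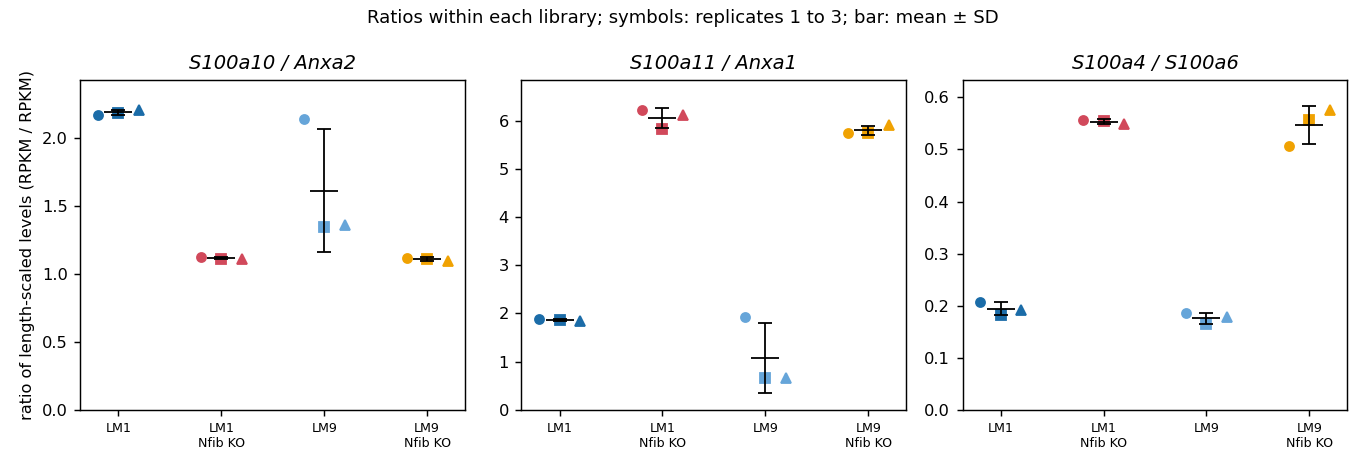
Ratio of length-scaled levels (RPKM over RPKM, axis from 0) in every library for S100a10 over Anxa2, S100a11 over Anxa1 and S100a4 over S100a6, with symbols for replicates 1 to 3 and bars for the mean ± SD. S100a10 over Anxa2 is near 1.11 in every KO-labelled library, and LM9 replicates 2 and 3 lie apart from replicate 1 in the first and second panels.

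Whether the change differed between the lines was tested with the interaction of line and KO label. None of the 10 genes passed (limma-voom), and over all 18176 genes 0% passed, with 1 gene called by edgeR and 70 by DESeq2, none of them one of the 10. At an unadjusted p under 0.05 there were 3 of the 10 genes (S100a11, S100a13 and Anxa2) and 4495 of all genes. Without LM9 replicate 1 the spread within LM9 shrank and 9 of the 10 genes passed, all but Anxa5, beside 57.2% of all genes (27.6% with a positive and 29.6% with a negative difference). Then 7 of them changed more positively in LM1, from 0.13 for Anxa1 to 1.06 for Anxa2 (difference of log2 fold changes), and S100a11 and Anxa6 more positively in LM9, by differences of -1.31 and -0.23. The count of genes with a line-dependent change thus rested on 1 library.

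LM1 and LM9 were then compared directly. With all libraries 0 of the 10 genes passed the test while 0.00550% of all genes passed (limma-voom). At an unadjusted p under 0.05 there were 7 of the 10 and 8661 of the 18176 genes. By DESeq2 7 of the 10 were called, beside 31.8% of all genes. The libraries of LM1 and LM9 overlapped for 10 of 10 genes, beside 17.0% of all genes for which they did not. Without LM9 replicate 1, 9 of the 10 passed, beside 65.7% of all genes (33.4% higher and 32.4% lower in LM1). S100a11 and Anxa6 were then higher in LM1, by 1.32 and 0.23 on the log2 scale. Anxa2, S100a13, S100a6, S100a4, S100a10, Anxa3 and Anxa1 were lower in LM1, by -1.06, -1.002, -0.84, -0.66, -0.36, -0.21 and -0.18 in that order. Anxa5 differed by -0.01 and was not called (limma-voom adjusted p = 0.881).

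LM9 replicate 1 lay within the range of the 3 LM1 libraries for 10 of 10 genes, beside 62.3% of all genes. LM9 replicates 2 and 3 did so for none of the 10, beside 16.9% and 17.7% of all genes. The mean of replicates 2 and 3 was 2.04 times replicate 1 for Anxa2, 1.96 times for S100a13, 1.77 times for S100a6, 1.62 times for S100a4 and 1.29 times for S100a10. It was 1.16, 1.15 and 1.00 times replicate 1 for Anxa3, Anxa1 and Anxa5, and 0.837 and 0.396 times for Anxa6 and S100a11. For S100a4, S100a6, S100a10, Anxa2, Anxa3 and Anxa6, LM9 replicates 2 and 3 thus departed from the LM1 level toward that of the KO-labelled libraries, for S100a11 and Anxa1 they departed away from it, and for S100a13 they passed beyond it.

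**Figure D4:**
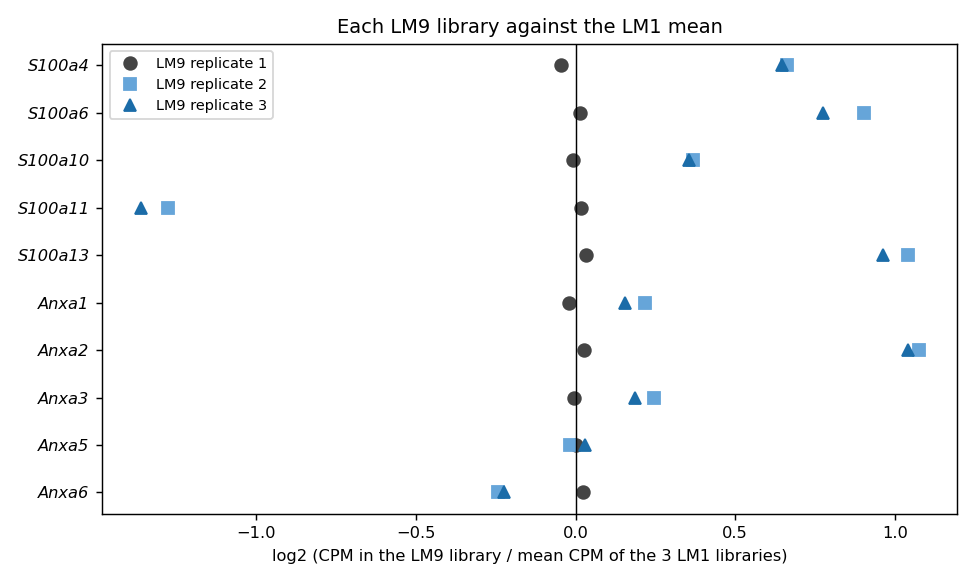
Log2 ratio of the CPM in each LM9 library to the mean CPM of the 3 LM1 libraries, for each of the 10 genes, with the 3 LM9 replicates as circle, square and triangle. Replicate 1 lies close to 0 for every gene, and replicates 2 and 3 range from below -1 for S100a11 to above 1 for Anxa2.

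The KO-labelled libraries of the 2 lines were close to each other. Differences of LM1 Nfib KO minus LM9 Nfib KO ran from -0.05 (Anxa1) to 0.01 (S100a13) on the log2 scale, and 0 of the 10 genes passed, beside 0% of all genes (limma-voom). At an unadjusted p under 0.05 there were 0 of the 10 and 178 of all genes, and edgeR and DESeq2 called 0 genes. The 95% intervals of the difference were widest for S100a11, from -0.53 to 0.55, and narrowest for Anxa5, from -0.12 to 0.07, so differences within these bounds were not detectable in the fit of all libraries. That fit takes its spread from all 4 groups, LM9 included. The SE of the S100a11 difference without LM9 replicate 1, which is in neither of the groups compared, was 0.03 in place of 0.24, and again 0 of the 10 genes passed. Only Anxa1 and Anxa5 had libraries that did not overlap between these groups, 2 of 10 beside 12.6% of all genes.

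The rest of both families was read from a list of their other members. Of 29 S100 and annexin genes listed, 21 were tested and 8 had no row. In the contrast averaged over both lines, 12 of the 21 were higher, 6 lower and 3 not called, beside 86.8% of all genes called, 46.3% higher and 40.5% lower (limma-voom). With library totals 13 of the 21 were higher and 3 lower, beside 52.8% and 33.6% of all genes. The median log2 fold change of the 11 S100 genes was 0.59 and that of the 10 annexin genes 0.22, beside 0.11 for all genes. The largest changes in both families were in genes outside the 10. Anxa8, an annexin first described as an anticoagulant, stood at 1.15 ± 0.253 CPM in LM1 and 264 ± 7.08 in LM1 Nfib KO, and at 3.68 ± 2.38 in LM9 and 263 ± 4.87 in its KO-labelled libraries (SD, n = 3), a rise of 7.21 as averaged log2 fold change. S100a8, a subunit of calprotectin, fell from 24.6 ± 1.04 CPM in LM1 to 1.70 ± 0.567 and from 82.0 ± 48.8 CPM in LM9 to 1.72 ± 0.310 in the libraries labelled KO. Calprotectin's other subunit, S100a9, had no row.

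S100a7a and S100a16 rose by 3.77 and 2.64 as averaged log2 fold changes (limma-voom adjusted p = 6.40e-11 and 7.11e-06). S100a1 was slightly higher (0.16) and S100a14, with at most 45 counts in any library, was lower (-2.20), while S100a3 had a value of 0.18 and was not called. By line, S100a3 was called higher in LM1 (0.64) and had -0.28 in LM9, not called. S100a1 was called in LM1 only and S100a14 in LM9 only. Among the annexins Anxa4 rose by 0.62, and Anxa11 and Anxa7 were lower by -0.49 and -0.25 with TMM scaling. Anxa7 was called in LM9 only. With library totals the calls of Anxa11 and Anxa7 were lost and 2 of the 5 other annexins, both higher, were called. Anxa9, at most 53 counts, had a value of -0.02 and was not called.

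All 11 tested S100 genes lie on chromosome 3, where the family is clustered. In the order of the chromosome the averaged log2 fold changes were 0.16 for S100a1, -0.04 for S100a13, -2.20 for S100a14, 2.64 for S100a16, 0.18 for S100a3, 3.13 for S100a4, 1.55 for S100a6, 3.77 for S100a7a and -4.59 for S100a8. S100a11 (1.91) and S100a10 (0.59) lie farther along the same chromosome. Neighbours in the cluster moved in different directions, and S100a8, the largest fall, lies next to S100a7a, the largest rise among the S100 genes.

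**Figure D5:**
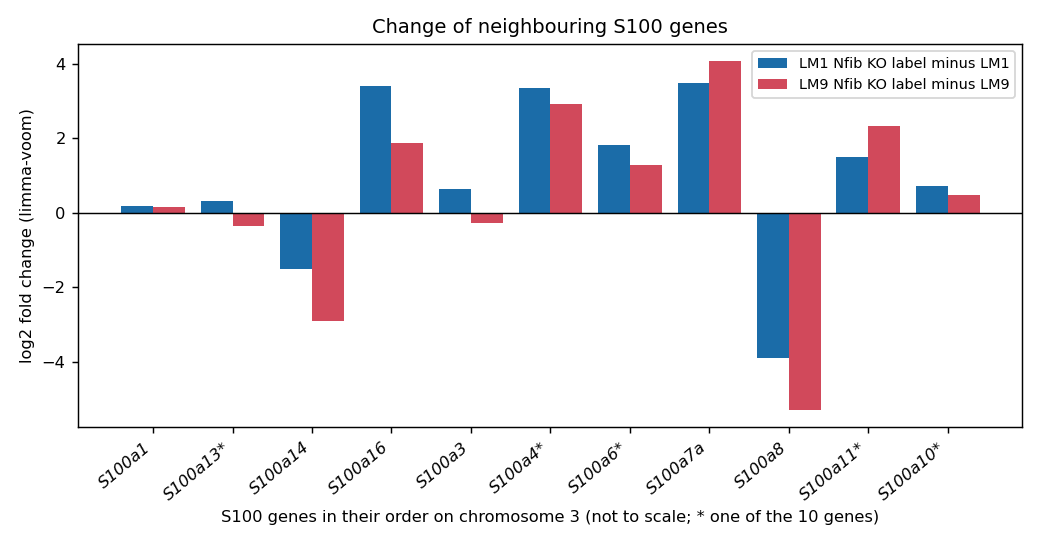
Log2 fold change (limma-voom) of the 11 tested S100 genes in their order on chromosome 3, not to scale, in LM1 (blue) and LM9 (red), with an asterisk on the genes among the 10. S100a8 and S100a14 point down in both lines, and S100a13 and S100a3 differ in sign between the lines.

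Genes known to work with S100 and annexin proteins were read from lists of partners and of related systems, in the contrast averaged over both lines. Of 15 tested partners and receptors, 7 were higher, 5 lower and 3 not called, with a median log2 fold change of 0.37 beside 0.11 for all genes. The 12 called stand beside 86.8% of all genes called, 46.3% higher and 40.5% lower, and with library totals 9 were higher and 4 lower. Dysf, which encodes the membrane repair protein dysferlin, a partner of annexins, rose from 1.62 ± 0.305 CPM in LM1 to 28.2 ± 1.35 and from 2.03 ± 0.344 CPM in LM9 to 27.9 ± 0.648. Pla2g4a, the cytosolic phospholipase A2 that annexin A1 inhibits, fell from 296 ± 11.1 CPM in LM1 to 52.9 ± 1.87 and from 228 ± 46.7 CPM in LM9 to 54.4 ± 1.58. Averaged over both lines Pla2g4a fell by 2.27 (log2), and Anxa1 had a value of -0.25. Rasa1, the p120 Ras GTPase-activating protein that annexin A6 recruits, rose by 1.57 on the log2 scale, while Anxa6 fell. The partners of S100A4 and S100A10 included Myh9, the heavy chain of non-muscle myosin IIA, which was higher by 0.37, and Ahnak, the large scaffold of the S100A10 and annexin A2 complex, which had an averaged value of -0.20 and was not called (limma-voom adjusted p = 1.22e-05 and 0.455). Ahnak had a value of -0.75 in LM1 and 0.35 in LM9, neither called, and its LM9 libraries stood at 1192 CPM in replicate 1 and 336 and 428 CPM in replicates 2 and 3, on either side of LM9 Nfib KO at 707 ± 18.8 CPM. Besides Pla2g4a the lower genes were Sugt1, Hltf, Fgf1 and Ager, and besides Ahnak the genes not called were Pdcd6 (0.10) and Tlr4 (0.69). By line, Tlr4 had a value of -0.20 in LM1, not called, and 1.58 in LM9, called higher. Its LM9 libraries stood at 61.6, 8.70 and 12.8 CPM in replicates 1 to 3. In LM1 only, Pdcd6 was called higher (0.23) and Hltf lower (-0.91).

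Of 8 tested genes of the plasminogen system, on which the S100A10 and annexin A2 complex acts, 4 were higher, 3 lower and 1 not called, beside the same 86.8% of all genes called, with a median log2 fold change of 0.68 beside 0.11 for all genes. Serpine2, an inhibitor of plasminogen activators, fell from 4422 ± 139 CPM in LM1 to 0.138 ± 0.0176, and from 6428 ± 1738 CPM in LM9 to 0.137 ± 0.0567, in the libraries labelled KO, where no library had more than 7 counts. Plaur, the urokinase receptor, rose by 1.62 on the log2 scale, and Plau, urokinase, fell by 1.57 (limma-voom adjusted p = 8.40e-06 and 8.70e-12). Receptor and ligand thus moved in opposite directions. The gene not called in the averaged contrast was Plat, tissue plasminogen activator, which was lower in LM1 (149 ± 2.28 against 123 ± 1.37 CPM, limma-voom adjusted p = 0.0215) and not called in LM9 (124 ± 22.9 against 125 ± 1.85 CPM). Of 24 tested genes of other EF-hand proteins, 9 were higher, 11 lower and 4 not called, beside 46.3% of all genes higher and 40.5% lower, with a median log2 fold change of -0.11 beside 0.11 for all genes. With library totals 13 of these 24 were higher and 10 lower, so which direction held more genes depended on the scaling. Lcp1, the actin-bundling protein L-plastin, fell from 93.3 ± 4.09 CPM in LM1 to 0.646 ± 0.101 and from 139.8 ± 41.5 CPM in LM9 to 0.670 ± 0.0591. Nucb2, a nucleobindin, fell by 3.40 on the log2 scale and Efhd1, a mitochondrial EF-hand protein, rose by 2.81. The EF-hand genes not called were Efhd2 (-0.21), Cib1 (0.21), Actn1 (0.06) and Actn4 (-0.07). By line, Efhd2 was called lower in LM9 (-0.54) and Cib1 higher in LM1 (0.50).

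The genes whose pattern over the 12 libraries was nearest to S100a4 were Gm42674, Gm9797 and Tyms, at Euclidean distances of 0.141, 0.189 and 0.196 (log2 CPM centred on the gene's mean). Gm42674 is the gene that overlaps S100a4, and Gm9797 is a pseudogene. Tyms, thymidylate synthase, went from 4.80 ± 0.556 CPM in LM1 to 50.5 ± 1.03 CPM in LM1 Nfib KO. The genes nearest to S100a13 were 3 pseudogenes, Gm6061, E030024N20Rik and Gm6043, at distances of 0.134, 0.144 and 0.167, each with LM9 above the other groups on average. Counts of pseudogenes are uncertain, since reads can fit their parent genes.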

How the data were processed

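Gene expression was measured by RNA-seq in 12 tumoursphere libraries, 3 for each of 4 groups taken from the titles (LM1, LM9 and the Nfib KO cells of both lines). The authors prepared stranded mRNA libraries, aligned single-end reads to mm10 with STAR and counted 5′ read ends over the exon union of each gene with qCount (QuasR). The deposited values are raw counts, 1 file per library. Versions, annotation release and the treatment of multi-mapping reads are not given in the sources used here. All deposited genes had at least 8 counts in the third-highest library. Names and coordinates (1-based) came from GENCODE M21 (GRCm38, the assembly of mm10), which matched 18268 of 18278 identifiers.

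filterByExpr (count minimum 10, total minimum 15) kept 18176 genes. limma-voom (R 4.3.3, limma 3.58.1, offset 0.5) was fitted with TMM factors (edgeR 4.0.16) and 4 group means over all 12 libraries. A floor of 3 counts equals 0.0730 to 0.121 CPM, and floors cover counting error only. Ratios were tested with exact permutation. Alternatives were edgeR's quasi-likelihood test, DESeq2 1.42.0, median-ratio factors, library totals, no filter, a mean of at least 5 CPM, a replicate block, only the groups compared, and leaving out each library. No 2 libraries agreed within sampling noise (lowest chi-square per gene 1.44).

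The 10 genes and all lists were chosen with earlier results of these data known. Named genes were the 10, Nfib, up to 3 genes per list with the largest averaged change past the threshold at 10 CPM or more, any gene that a count of 5 or fewer turns on, and the 3 nearest patterns to the genes with the largest and smallest averaged change. Marker genes were named from their lists. Among the listed genes, 1 is left out of the text and is not reported here. Tumours and other lines of the study were not analysed here.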

Additional observations from a re-analysis of the deposited data

How the results depend on the processing

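The counts of the 10 genes called in each line and in the averaged contrast stayed within 1.5 times the reported 9 under every alternative run. For LM1 against LM9 the reported 0 became 7 by DESeq2, 3 with library totals, 5 with a mean of at least 5 CPM and 9 without LM9 replicate 1, while the share of all genes called became 31.8%, 28.8%, 39.4% and 65.7%. Leaving out 1 library at a time gave 0 to 9 in that comparison and 0 to 9 for the interaction, with 9 in each case only without LM9 replicate 1. The cause of the moves with DESeq2, library totals and the stricter filter was not tested. Anxa1 reversed with library totals, to 0.0065 in LM1 and 0.075 in LM9 (limma-voom adjusted p = 0.889 and 0.108). S100a13, not called in the report, was called in LM1 with library totals, with only the groups compared and without LM9 replicate 1, and in LM9 by DESeq2 and without LM9 replicate 1. Same-numbered libraries did not deviate together (r from -0.05 to 0.03), and with the replicate number as a block 9 of the 10 genes were called in each line and in the averaged contrast and 0 in the other 3 comparisons. Fitting only the groups compared is the main fit itself for the averaged contrast and the interaction, so it was not run there. Depth was not limiting for the 10 genes, whose lowest count in a library was 412. The spread within LM9 limits what could be called there and, since the fit shares it over all groups, in the other comparisons.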
